A study of Mus musculus with 6 samples.

Results

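The genes described here are 40 genes of blood and lymphatic vessels, measured in gonadal white adipose tissue (GWAT) of obese mice that lack Fsp27. They were taken from a written list of endothelial identity genes, the VEGF, angiopoietin, Notch and ephrin systems, and lymphatic genes, and the value of each was that of the brightest probeset, by its mean over all 6 arrays, among those annotated to that symbol alone. All 40 were measured, each by 1 such probeset, out of 19937 genes. The tissue came from chow-fed males aged 4 months in both groups. One group, *ob/ob/Fsp27-/-*, lacked both leptin and Fsp27, the lipid droplet protein encoded by *Cidec* that promotes droplet fusion and fat storage; the *ob/ob* group lacked leptin alone, so that every animal carried the leptin defect. The study obtained the double mutants by crossing Fsp27-null mice with leptin-deficient mice, and the Fsp27 loss affected the whole body rather than a single cell type. RNA was amplified in 2 rounds and hybridized to Affymetrix Mouse Gene 1.0 ST arrays, 3 per genotype. The study's methods describe each array as a pool of 3 mice while the labels do not mention pooling, so an array was taken as 1 replicate, the spread between single mice is unknown, and the p-values measure only the spread between these arrays.

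Blood vessels in fat are lined by endothelial cells that are held together by VE-cadherin and claudin-5 and kept in their identity by ETS and SOX transcription factors. VEGF-A, which adipocytes and other cells secrete, acts on endothelial VEGFR2 (*Kdr*) to drive sprouting, while VEGFR1 (*Flt1*) binds the ligand tightly and signals weakly. Angiopoietin-1 stabilizes vessels through the receptor Tie2 (*Tek*), angiopoietin-2 can oppose it, and Dll4-Notch and ephrin-B2-EphB4 signalling set which endothelial cells sprout and which become artery or vein.

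Many endothelial genes are bound through the core GGAA by ETS factors such as ERG and FLI1, whose own genes moved in opposite directions here. For this reason the 250 bases before the start site are shown for both main VEGF receptors and the Notch ligand, which were higher in *ob/ob/Fsp27-/-* GWAT, and for the co-receptor *Nrp1*, which was lower. Sequences are from RefSeq (build GRCm38.p6), 5′ to 3′ on the strand of the gene, with GGAA on either strand (read as GGAA or TTCC) in capitals: *Kdr* at chr5:75978456-75978705 (minus strand), *Flt1* at chr5:147726012-147726261 (minus strand), *Nrp1* at chr8:128358823-128359072 (plus strand) and *Dll4* at chr2:119325534-119325783 (plus strand).
Kdr: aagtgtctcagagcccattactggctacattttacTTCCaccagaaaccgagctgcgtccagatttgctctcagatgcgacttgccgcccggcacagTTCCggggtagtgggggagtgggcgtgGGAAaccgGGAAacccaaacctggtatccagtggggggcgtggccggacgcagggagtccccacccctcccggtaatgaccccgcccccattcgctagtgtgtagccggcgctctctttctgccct
Flt1: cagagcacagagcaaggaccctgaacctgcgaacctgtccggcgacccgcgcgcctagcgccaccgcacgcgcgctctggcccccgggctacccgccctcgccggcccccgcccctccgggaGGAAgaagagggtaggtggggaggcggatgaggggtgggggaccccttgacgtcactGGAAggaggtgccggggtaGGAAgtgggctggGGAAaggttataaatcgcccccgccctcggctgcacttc
Nrp1: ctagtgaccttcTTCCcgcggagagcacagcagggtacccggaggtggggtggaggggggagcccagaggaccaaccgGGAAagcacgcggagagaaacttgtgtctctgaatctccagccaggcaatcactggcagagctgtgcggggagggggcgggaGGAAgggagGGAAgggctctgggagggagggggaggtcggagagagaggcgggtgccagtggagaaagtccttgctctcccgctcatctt
Dll4: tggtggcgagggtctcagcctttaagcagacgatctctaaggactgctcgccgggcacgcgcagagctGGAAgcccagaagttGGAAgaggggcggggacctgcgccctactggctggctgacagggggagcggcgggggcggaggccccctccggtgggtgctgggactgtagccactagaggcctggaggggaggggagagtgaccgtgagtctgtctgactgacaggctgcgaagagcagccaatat
The core occurred 4 times in each of the *Kdr*, *Flt1* and *Nrp1* stretches and 2 times in that of *Dll4*. A promoter entry was matched for 23 of the 40 genes by symbol, with 30 promoters in all. GGAA was found in 26 of these 30 (86.7%), in 18 of 19 promoters of the genes that were higher (94.7%) and in 2 of 2 of those that were lower, beside 93.4% of all 32851 promoters of the same length. The 19 promoters belonged to 14 of the higher genes, and only 2 of the lower genes had a promoter entry, as some genes had several promoters and others none. A 4-base match is a description of the letters and not a binding site, and its share here was about that of any promoter.

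The arrays resembled each other more within a genotype than between genotypes. Pearson's r across the 22961 probesets with a symbol was 0.988 to 0.992 within *ob/ob/Fsp27-/-*, 0.99 to 0.994 within *ob/ob* and 0.943 to 0.965 between genotypes. The probeset for *Cidec*, the disrupted gene, read 11.34, 11.51 and 11.53 on the *ob/ob/Fsp27-/-* arrays and 11.49, 11.78 and 11.98 on the *ob/ob* arrays (log2 level; adjusted p = 0.157). Where its probes lie relative to the disrupted part was not given in the sources used here, so it does not serve as a check of the labels.

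In *ob/ob/Fsp27-/-* GWAT, 19 of the 40 genes were higher than in *ob/ob* GWAT (47.5%, where 9.58% of all genes were), 5 were lower (12.5%, where 10.8% of all genes were) and 16 were not called. The genes that rose most were *Kdr* (2.64-fold), *Vegfa* (2.59-fold), *Nos3* (2.17-fold) and *Flt1* (2.00-fold), and those that fell were *Angpt2* (2.70-fold lower), *Cd93* (2.29-fold), *Pdpn* (1.75-fold), *Nrp1* (1.69-fold) and *Fli1* (1.46-fold). A gene was called at an adjusted p below 0.05 (limma with Benjamini-Hochberg adjustment over all probesets tested) together with a log2 difference of at least 0.5 in either direction. In either direction the same rule called 20.4% of all genes, so the share of the 40 that was higher lay above the background and the share that was lower lay close to it. The median log2 difference, *ob/ob/Fsp27-/-* minus *ob/ob*, was 0.54 over the 40 genes and 0.06 over all genes. The difference was positive for 31 of the 40 genes, where it was positive for 12029 of all 19937 genes. The arrays of the genotypes did not overlap for 36 of the 40 genes, 28 with *ob/ob/Fsp27-/-* above and 8 with it below, where 46.0% of all genes did not overlap (25.3% above and 20.7% below). In whole tissue, a change in the share of endothelial cells and a change in RNA per endothelial cell cannot be told apart. Nor can either be told from a change in other cells that express some of these genes.

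**Figure D1:**
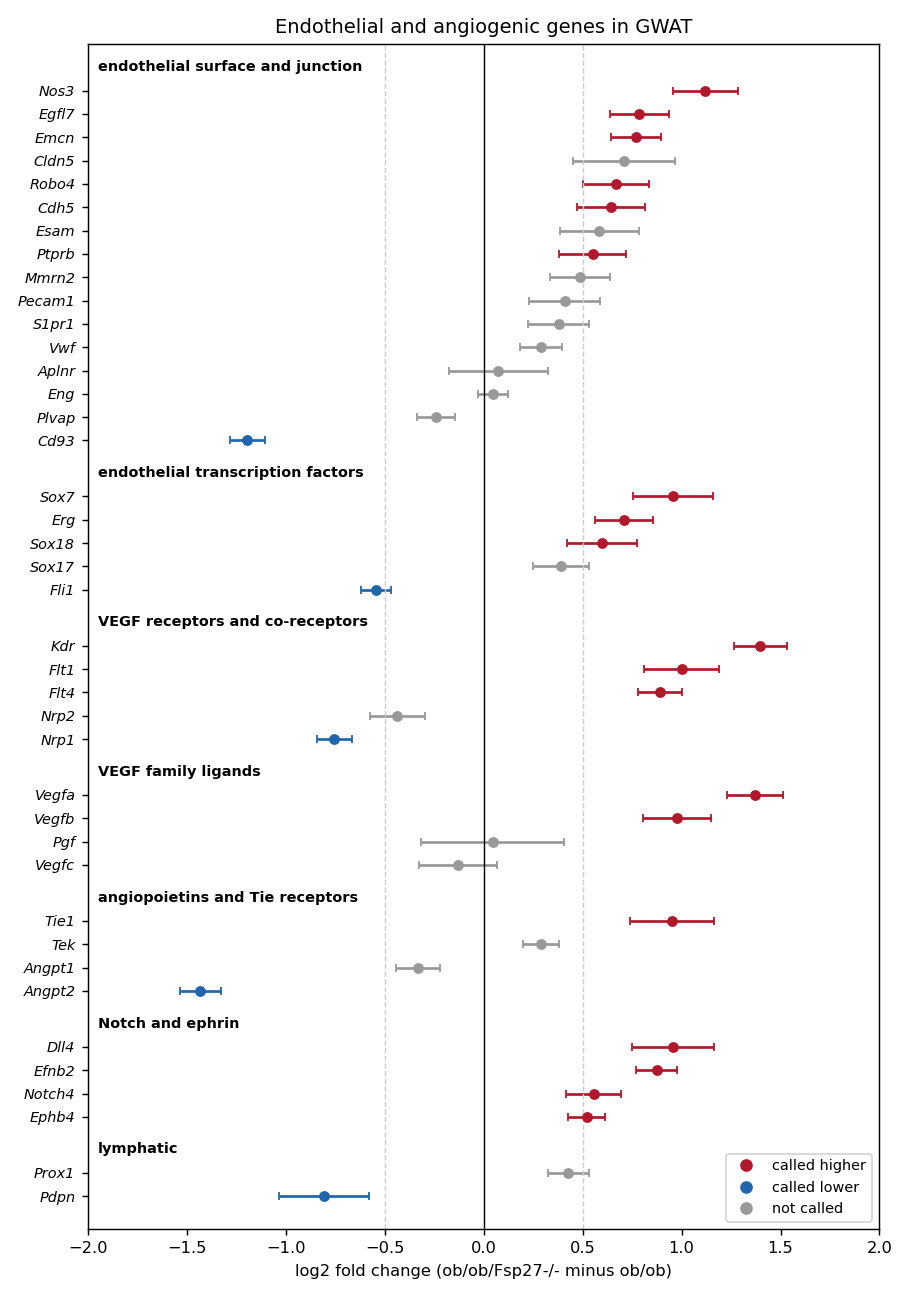
Log2 difference (*ob/ob/Fsp27-/-* minus *ob/ob*, x axis) of each of the 40 genes, grouped by role, with bars of 1 SE from limma on either side; dashed lines mark the fold limit of 0.5, and red, blue and grey mark the 19 genes called higher, the 5 called lower and the 16 not called. *Kdr* and *Vegfa* lie farthest to the right at 1.40 and 1.37, and *Angpt2* and *Cd93* farthest to the left at -1.43 and -1.19.

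The VEGF receptors were split between the signalling kinases, all higher, and the co-receptors. *Kdr* (probeset 10530692), which encodes VEGFR2, had log2 levels of 9.66, 9.63 and 9.61 on the *ob/ob/Fsp27-/-* arrays, against 7.97, 8.50 and 8.25 on the *ob/ob* arrays. The 3 *ob/ob/Fsp27-/-* arrays were nearly equal and all lay more than 1 log2 unit above the highest *ob/ob* array. *Kdr* rose by 1.40 (SE 0.134, adjusted p = 0.000407). *Flt1*, the VEGFR1 gene, read 9.05, 9.47 and 9.34 on the *ob/ob/Fsp27-/-* arrays and 7.98, 8.22 and 8.66 on the *ob/ob* arrays, without overlap, and rose by 1.001 (SE 0.189, adjusted p = 0.00706). *Flt4*, which encodes VEGFR3, the receptor for VEGF-C on lymphatic and some blood endothelium, was dim on both: 6.82, 6.70 and 6.60 on the *ob/ob/Fsp27-/-* arrays and 5.78, 5.66 and 5.996 on the *ob/ob* arrays. All *Flt4* values of *ob/ob* GWAT lay under 6.07, the median of all values on the arrays, and the log2 difference was 0.89 (SE 0.112, adjusted p = 0.00127). The neuropilins, co-receptors for VEGF and semaphorins that other cells of the tissue also express, were lower (*Nrp1*) or not called (*Nrp2*). *Nrp1* levels were 9.83, 9.73 and 9.75 on the *ob/ob/Fsp27-/-* arrays, below all of 10.64, 10.54 and 10.39 on the *ob/ob* arrays, and the gene fell by 0.76 on the log2 scale (SE 0.0894, adjusted p = 0.00101). *Nrp2* read 9.06, 9.24 and 9.20 on the *ob/ob/Fsp27-/-* arrays and 9.89, 9.54 and 9.38 on the *ob/ob* arrays; the arrays did not overlap, but the log2 difference of -0.44 (95% CI -0.76 to -0.11) did not pass (adjusted p = 0.0527). Without *ob/ob* array 3, *Nrp2* was called lower (log2 difference -0.55, adjusted p = 0.0253).

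Of the 4 VEGF family ligands, *Vegfa* and *Vegfb* were higher and *Vegfc* and *Pgf* were not called. *Vegfa* (probeset 10451198), the main angiogenic ligand, had log2 levels of 10.09, 10.29 and 9.995 on the *ob/ob/Fsp27-/-* arrays, against 8.54, 8.70 and 9.02 on the *ob/ob* arrays. The genotypes were separated by nearly 1 log2 unit at their closest, and *Vegfa* rose by 1.37 (SE 0.141, adjusted p = 0.000564). *Vegfb*, whose product binds VEGFR1, read 9.71, 9.92 and 9.997 on the *ob/ob/Fsp27-/-* arrays and 8.60, 8.84 and 9.26 on the *ob/ob* arrays and rose by 0.98 (SE 0.173, adjusted p = 0.00541). For both ligands the *ob/ob* values were lowest on array 1 and highest on array 3, and no *ob/ob* array reached any *ob/ob/Fsp27-/-* array. *Vegfc*, the lymphatic growth factor, overlapped between genotypes (5.98, 6.17 and 5.79 on the *ob/ob/Fsp27-/-* arrays, 5.70, 6.18 and 6.46 on the *ob/ob* arrays), with a log2 difference of -0.13 (95% CI -0.59 to 0.34, adjusted p = 0.674). *Pgf*, which encodes placental growth factor, a VEGFR1 ligand, was at 6.69, 5.43 and 5.40 on the *ob/ob/Fsp27-/-* arrays and 5.38, 5.97 and 6.03 on the *ob/ob* arrays. A single *ob/ob/Fsp27-/-* array, array 1, stood above the rest, and the log2 difference of 0.05 had a wide interval (95% CI -0.81 to 0.90, adjusted p = 0.938), which left a difference of the size seen for *Vegfa* outside it.

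The angiopoietin and Tie genes did not move as a group. *Angpt2* (probeset 10577315), which encodes a ligand made by endothelial cells themselves, had log2 levels of 6.27, 6.56 and 6.36 on the *ob/ob/Fsp27-/-* arrays, against 7.71, 7.86 and 7.92 on the *ob/ob* arrays. Every *ob/ob/Fsp27-/-* array lay more than 1 log2 unit below every *ob/ob* array, and *Angpt2* fell by 1.43 (SE 0.105, adjusted p = 0.000158), the largest change in either direction among the 40 genes. *Angpt1*, the stabilizing ligand, was dim in both genotypes, at 4.87, 4.67 and 4.62 on the *ob/ob/Fsp27-/-* arrays and 5.07, 5.19 and 4.90 on the *ob/ob* arrays, and its log2 difference of -0.33 did not pass (adjusted p = 0.0599). *Tie1*, an orphan receptor that forms complexes with Tie2, read 8.43, 8.66 and 8.18 on the *ob/ob/Fsp27-/-* arrays and 7.03, 7.59 and 7.80 on the *ob/ob* arrays. *Tie1* rose by 0.95 (SE 0.213, adjusted p = 0.0142), without overlap, but its call was lost without *ob/ob/Fsp27-/-* array 2 (0.84, adjusted p = 0.0578). *Tek*, the receptor itself, was at 8.81, 8.76 and 8.58 on the *ob/ob/Fsp27-/-* arrays and 8.34, 8.49 and 8.46 on the *ob/ob* arrays, with a log2 difference of 0.29 (95% CI 0.07 to 0.51, adjusted p = 0.0544). The median log2 difference of the 4 was -0.02; it turned positive when arrays were centred on housekeeping genes (0.15) and when *Angpt1* fell under a filter at the median of all values (0.29).

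**Figure D2:**
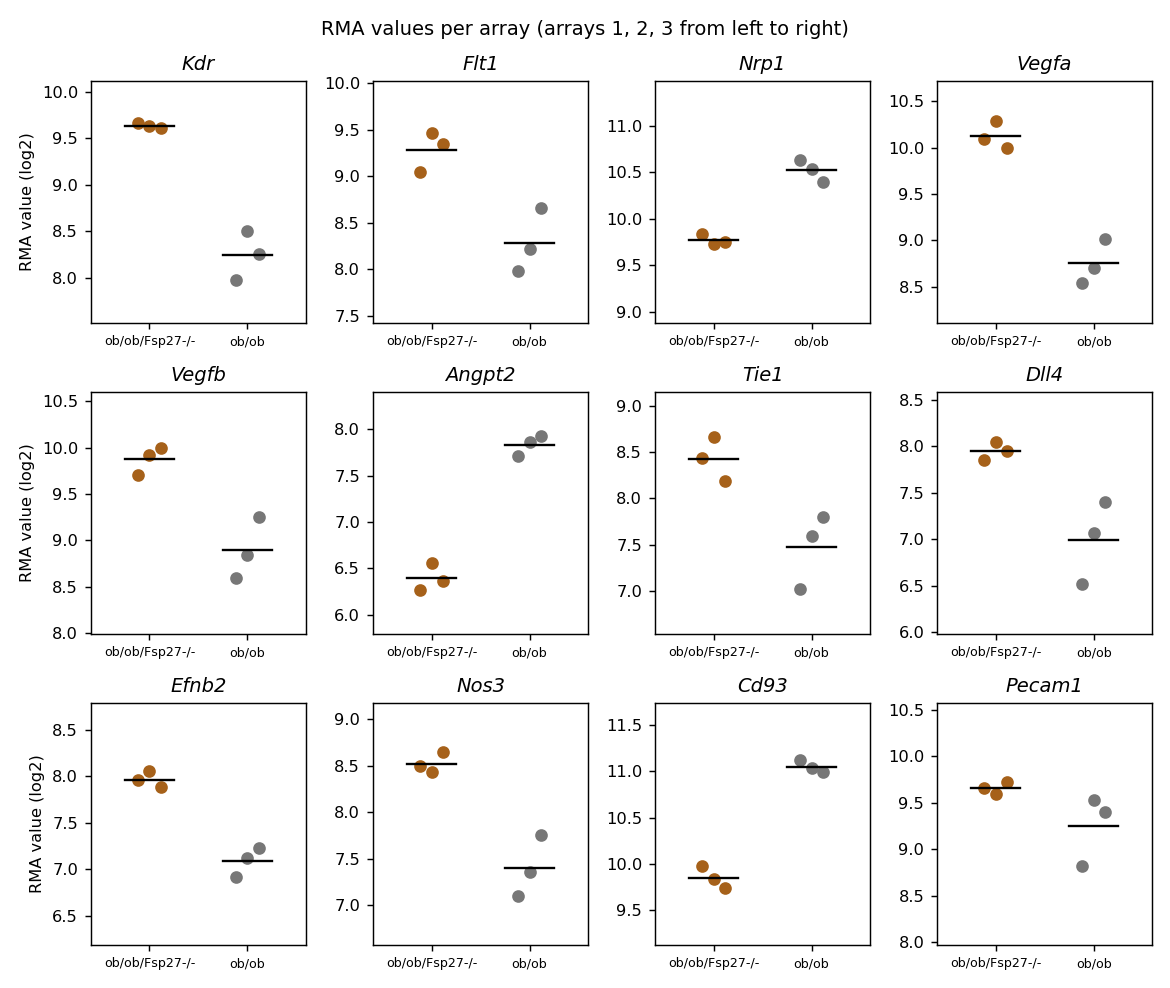
Log2 level (RMA value, y axis) of *Kdr*, *Flt1*, *Nrp1*, *Vegfa*, *Vegfb*, *Angpt2*, *Tie1*, *Dll4*, *Efnb2*, *Nos3*, *Cd93* and *Pecam1* on each array, with *ob/ob/Fsp27-/-* left (brown) and *ob/ob* right (grey); points are arrays 1, 2 and 3 from left to right, horizontal lines are group means, and every panel spans the same range. The genotypes are apart in every panel, with *Nrp1*, *Angpt2* and *Cd93* lower in *ob/ob/Fsp27-/-* GWAT and the others higher, and *Pecam1* the closest (9.59 on the lowest *ob/ob/Fsp27-/-* array and 9.53 on the highest *ob/ob* array).

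All 4 Notch and ephrin genes were higher in *ob/ob/Fsp27-/-* GWAT. *Efnb2*, which encodes the arterial ligand ephrin-B2, had log2 levels of 7.95, 8.05 and 7.88 on the *ob/ob/Fsp27-/-* arrays, against 6.92, 7.12 and 7.22 on the *ob/ob* arrays, and rose by 0.87 (SE 0.103, adjusted p = 0.000978). Its venous receptor gene *Ephb4* read 8.33, 8.36 and 8.12 on the *ob/ob/Fsp27-/-* arrays and 7.69, 7.73 and 7.82 on the *ob/ob* arrays and rose by 0.52 (SE 0.0936, adjusted p = 0.00579). Neither gene overlapped, but *Ephb4* lay just past the fold limit and slipped under it, at 0.47 to 0.49, without *ob/ob* array 1 or without *ob/ob/Fsp27-/-* array 1 or 2. *Dll4*, the Notch ligand of sprouting and arterial endothelium, was at 7.85, 8.05 and 7.95 on the *ob/ob/Fsp27-/-* arrays and 6.52, 7.06 and 7.40 on the *ob/ob* arrays. The *ob/ob* arrays were spread over nearly 1 log2 unit and still lay below the *ob/ob/Fsp27-/-* arrays; *Dll4* rose by 0.96 (SE 0.209, adjusted p = 0.0132), a call lost without *ob/ob/Fsp27-/-* array 2 (0.91, adjusted p = 0.0547). *Notch4*, an endothelial Notch receptor, read 8.08, 8.44 and 8.24 on the *ob/ob/Fsp27-/-* arrays and 7.50, 7.67 and 7.92 on the *ob/ob* arrays. *Notch4* rose by 0.56 (SE 0.140, adjusted p = 0.0227) with no overlap, and the call was lost without *ob/ob* array 1 or 2 or without *ob/ob/Fsp27-/-* array 2 or 3 (adjusted p 0.0597 to 0.0769).

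Of the 5 endothelial transcription factors, *Erg*, *Sox7* and *Sox18* were higher, *Fli1* was lower and *Sox17* was not called. *Erg*, an ETS factor of endothelial identity, had log2 levels of 7.74, 7.86 and 7.81 on the *ob/ob/Fsp27-/-* arrays, against 6.76, 7.21 and 7.31 on the *ob/ob* arrays, and rose by 0.71 (SE 0.146, adjusted p = 0.0103). *Fli1*, a related ETS factor that is also made by blood cells, read 8.73, 8.65 and 8.65 on the *ob/ob/Fsp27-/-* arrays and 9.28, 9.24 and 9.14 on the *ob/ob* arrays. Each genotype's arrays lay close together for *Fli1*, without overlap, and the gene fell by 0.55 on the log2 scale (SE 0.0777, adjusted p = 0.00221); it was no longer called when arrays were centred on housekeeping genes. The SOX factors cooperate in arterial and lymphatic development. *Sox7* read 8.04, 8.31 and 7.74 on the *ob/ob/Fsp27-/-* arrays and 6.72, 7.10 and 7.40 on the *ob/ob* arrays and rose by 0.96 (SE 0.203, adjusted p = 0.0116). *Sox18* was at 8.34, 8.65 and 8.36 on the *ob/ob/Fsp27-/-* arrays and 7.49, 7.90 and 8.17 on the *ob/ob* arrays and rose by 0.60 (SE 0.179, adjusted p = 0.0434). The arrays did not overlap for either gene, but with an array left out the *Sox18* call was kept only without *ob/ob* array 3 and was lost in the other 5 fits (adjusted p 0.0654 to 0.139). *Sox17* read 7.33, 7.48 and 7.52 on the *ob/ob/Fsp27-/-* arrays and 6.74, 7.20 and 7.21 on the *ob/ob* arrays, with a log2 difference of 0.39 (95% CI 0.06 to 0.73, adjusted p = 0.0812).

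Among the 16 endothelial surface, junction and signalling genes, 6 were higher, 1 was lower and 9 were not called. *Nos3*, which encodes the endothelial nitric oxide synthase, had log2 levels of 8.50, 8.43 and 8.65 on the *ob/ob/Fsp27-/-* arrays, against 7.10, 7.36 and 7.75 on the *ob/ob* arrays, and rose by 1.12 (SE 0.166, adjusted p = 0.00259). *Egfl7*, which encodes a matrix protein secreted by endothelium, read 9.30, 9.44 and 9.06 on the *ob/ob/Fsp27-/-* arrays and 8.26, 8.46 and 8.73 on the *ob/ob* arrays and rose by 0.79 (SE 0.149, adjusted p = 0.00716). *Emcn*, the gene of the capillary and venous sialomucin endomucin, was at 9.93, 9.94 and 10.12 on the *ob/ob/Fsp27-/-* arrays and 8.996, 9.44 and 9.25 on the *ob/ob* arrays and rose by 0.77 (SE 0.127, adjusted p = 0.00401). All 3 genes were without overlap and kept their calls whichever array was left out. *Robo4*, an endothelial roundabout receptor, read 8.61, 8.68 and 8.96 on the *ob/ob/Fsp27-/-* arrays and 7.74, 8.19 and 8.31 on the *ob/ob* arrays and rose by 0.67 (SE 0.167, adjusted p = 0.022). *Cdh5*, which encodes VE-cadherin, was at 10.66, 10.52 and 10.55 on the *ob/ob/Fsp27-/-* arrays and 9.51, 10.09 and 10.18 on the *ob/ob* arrays and rose by 0.64 (SE 0.173, adjusted p = 0.0296). *Ptprb*, the phosphatase VE-PTP that restrains Tie2, read 9.68, 9.76 and 9.74 on the *ob/ob/Fsp27-/-* arrays and 8.80, 9.23 and 9.49 on the *ob/ob* arrays and rose by 0.55 (SE 0.168, adjusted p = 0.0464). For these 3 genes the genotypes did not overlap, and *ob/ob* array 1 gave the lowest value. *Robo4* was lost without *ob/ob/Fsp27-/-* array 2 or 3 (adjusted p 0.0586 and 0.0678). *Cdh5* was lost without *ob/ob* array 1, where its log2 difference was 0.44, or without any one *ob/ob/Fsp27-/-* array (adjusted p 0.0707 to 0.0782), and *Ptprb* without any array but *ob/ob* array 3 (adjusted p 0.0613 to 0.127).

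The surface gene that fell was *Cd93*, which encodes a lectin-like receptor of endothelium and of myeloid cells. *Cd93* had log2 levels of 9.98, 9.84 and 9.74 on the *ob/ob/Fsp27-/-* arrays, against 11.12, 11.03 and 10.99 on the *ob/ob* arrays. The *ob/ob* arrays lay close together and all were more than 1 log2 unit above the *ob/ob/Fsp27-/-* arrays, and *Cd93* fell by 1.19 (SE 0.0903, adjusted p = 0.000178). *Mmrn2*, whose product multimerin-2 is a matrix ligand of CD93, read 8.37, 8.60 and 8.29 on the *ob/ob/Fsp27-/-* arrays and 7.73, 7.84 and 8.23 on the *ob/ob* arrays. Its log2 difference of 0.49 passed on p (adjusted p = 0.0485) but lay under the fold limit, and it was called higher without *ob/ob* array 3 (0.64, adjusted p = 0.0103).

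Several textbook endothelial markers were not called. *Pecam1*, the gene of the junction adhesion molecule CD31, read 9.66, 9.59 and 9.72 on the *ob/ob/Fsp27-/-* arrays and 8.82, 9.53 and 9.40 on the *ob/ob* arrays (log2 difference 0.41, 95% CI -0.02 to 0.83, adjusted p = 0.14). *Cldn5*, the tight junction claudin, was at 9.78, 9.57 and 9.39 on the *ob/ob/Fsp27-/-* arrays and 8.25, 9.22 and 9.15 on the *ob/ob* arrays (log2 difference 0.71, 95% CI 0.10 to 1.32, adjusted p = 0.0832). *Esam*, which encodes another junction adhesion molecule, read 9.55, 9.59 and 9.64 on the *ob/ob/Fsp27-/-* arrays and 8.51, 9.25 and 9.27 on the *ob/ob* arrays (log2 difference 0.58, 95% CI 0.11 to 1.06, adjusted p = 0.0685). In these 3 genes *ob/ob* array 1 lay well below the other *ob/ob* arrays, and the genotypes still did not overlap. *S1pr1*, the sphingosine 1-phosphate receptor that tightens the barrier, was at 9.46, 9.54 and 9.83 on the *ob/ob/Fsp27-/-* arrays and 8.94, 9.43 and 9.31 on the *ob/ob* arrays (log2 difference 0.38, adjusted p = 0.114). *Vwf*, the gene of the platelet-binding von Willebrand factor, read 7.72, 7.85 and 7.66 on the *ob/ob/Fsp27-/-* arrays and 7.46, 7.29 and 7.62 on the *ob/ob* arrays (log2 difference 0.29, adjusted p = 0.086). *Plvap*, which encodes the diaphragm protein of fenestrae and caveolae, had 7.34, 7.52 and 7.61 on the *ob/ob/Fsp27-/-* arrays and 7.67, 7.72 and 7.81 on the *ob/ob* arrays (log2 difference -0.24, adjusted p = 0.108). *S1pr1* and *Vwf* were above on every *ob/ob/Fsp27-/-* array and *Plvap* below, each by a small margin. *Eng*, which encodes the TGF-β co-receptor endoglin, varied least: 9.46, 9.54 and 9.55 on the *ob/ob/Fsp27-/-* arrays and 9.40, 9.49 and 9.53 on the *ob/ob* arrays. The *Eng* log2 difference of 0.05 had a narrow interval (95% CI -0.13 to 0.23, adjusted p = 0.7), below the size of every gene called higher. *Aplnr*, the apelin receptor, read 8.16, 8.05 and 7.35 on the *ob/ob/Fsp27-/-* arrays and 7.42, 7.83 and 8.09 on the *ob/ob* arrays, overlapping fully (log2 difference 0.07, 95% CI -0.51 to 0.66, adjusted p = 0.855).

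Of the 2 lymphatic genes, *Pdpn* was lower and *Prox1* was not called. *Pdpn*, which encodes podoplanin, a glycoprotein of lymphatic endothelium that fibroblasts and macrophages can also make, had log2 levels of 7.68, 7.54 and 7.17 on the *ob/ob/Fsp27-/-* arrays, against 8.36, 8.64 and 7.80 on the *ob/ob* arrays. The groups were adjacent without overlap, and *Pdpn* fell by 0.81 (SE 0.227, adjusted p = 0.0347), a call lost without *ob/ob* array 1 or 2, without *ob/ob/Fsp27-/-* array 2 or 3 (adjusted p 0.0859 to 0.104) and with arrays centred on housekeeping genes. *Prox1*, the lymphatic master transcription factor, was dim, at 4.92, 4.78 and 4.69 on the *ob/ob/Fsp27-/-* arrays and 4.34, 4.52 and 4.25 on the *ob/ob* arrays. Its log2 difference of 0.43 passed on p (adjusted p = 0.0204) and lay under the fold limit, and it was called higher without *ob/ob* array 2 (0.50, adjusted p = 0.0243). *Prox1*, *Angpt1*, *Pgf* and *Vegfc* were the 4 genes with a mean under the median of all values.

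The position of single arrays mattered for the size of these differences. *ob/ob* array 1 was the lowest *ob/ob* array for 31 of the 40 genes, *ob/ob* array 2 for 2 and *ob/ob* array 3 for 7. The median deviation of the 40 genes from their own means was 0.24, 0.28 and 0.20 on the *ob/ob/Fsp27-/-* arrays, and -0.49, -0.17 and -0.07 on *ob/ob* arrays 1, 2 and 3. The adipocyte marker *Adipoq*, which encodes adiponectin, followed the same order on the *ob/ob* arrays (12.28, 12.32 and 12.48 on the *ob/ob/Fsp27-/-* arrays and 10.59, 11.22 and 11.68 on the *ob/ob* arrays). The adipocyte markers *Fabp4* and *Lpl* did not, being highest on *ob/ob* array 2. Several macrophage markers ran the other way, such as *Cd68* (12.02, 11.95 and 11.81 on the *ob/ob* arrays), while *Fcgr1* and *Cd163* followed the order. The part of these markers in the result was not tested. Leaving out *ob/ob* array 1 gave 14 higher and 4 lower with a median log2 difference of 0.39, and leaving out *ob/ob* array 3 gave 20 higher and 6 lower with a median of 0.65. The largest loss followed from leaving out *ob/ob/Fsp27-/-* array 2, which gave 11 higher and 4 lower. Of the 24 called genes, 15 were called whichever array was left out: *Kdr*, *Flt1*, *Flt4*, *Vegfa*, *Vegfb*, *Efnb2*, *Erg*, *Sox7*, *Nos3*, *Egfl7* and *Emcn* as higher, and *Angpt2*, *Cd93*, *Nrp1* and *Fli1* as lower.

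**Figure D3:**
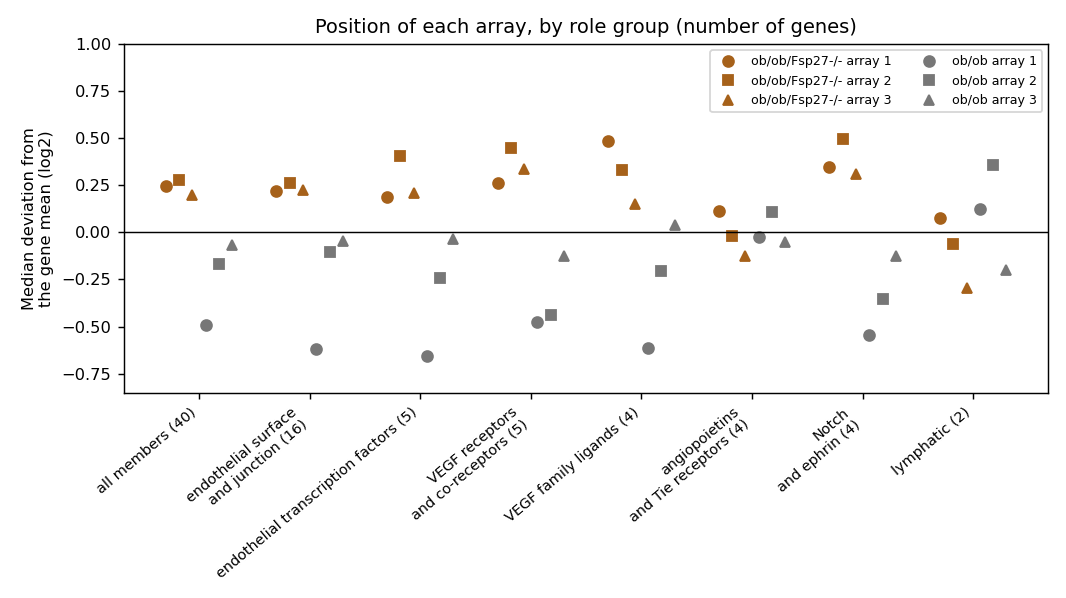
Median, over the genes of each role group, of the deviation from the gene's own mean over 6 arrays (log2, y axis), with *ob/ob/Fsp27-/-* arrays in brown on the left and *ob/ob* arrays in grey on the right of each group, and the number of genes in brackets. Over all 40 genes *ob/ob* array 1 is lowest (-0.49) and *ob/ob* array 3 nearest to 0 among the *ob/ob* arrays (-0.07).

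**Figure D4:**
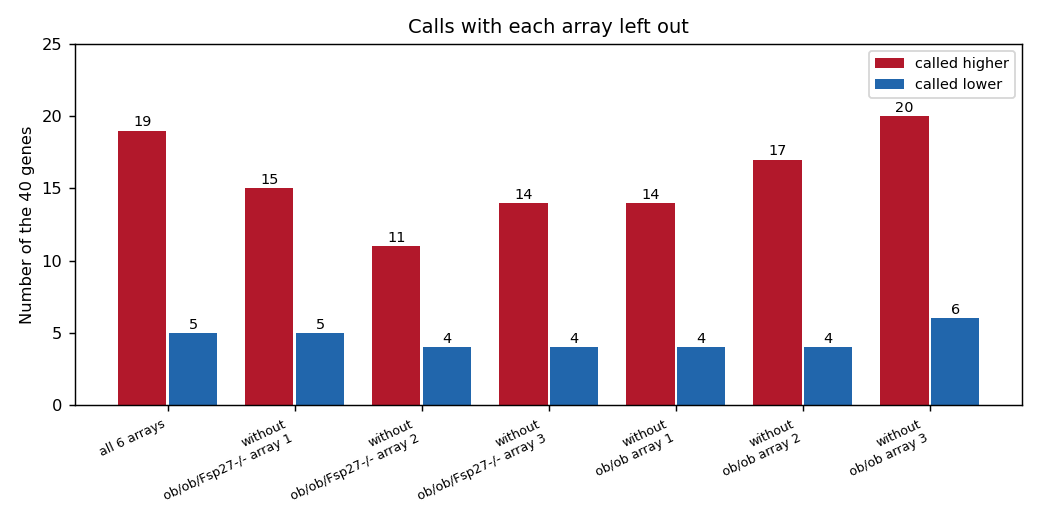
Number of the 40 genes called higher (red) and lower (blue) in *ob/ob/Fsp27-/-* GWAT with all 6 arrays and with each array left out in turn. The higher count is smallest without *ob/ob/Fsp27-/-* array 2 (11) and largest without *ob/ob* array 3 (20), and the lower count stays between 4 and 6.

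Ligands and receptors that act together were also set against each other within each array, which cancels a shift that an array applies to both genes alike; the difference between probesets of 2 genes is no measure of their relative amounts, and only its change between genotypes is given. The *Angpt2* minus *Angpt1* difference was 1.10 log2 units smaller in *ob/ob/Fsp27-/-* GWAT, at 1.40, 1.89 and 1.74 on the *ob/ob/Fsp27-/-* arrays and 2.64, 2.67 and 3.02 on the *ob/ob* arrays. The *Vegfa* minus *Vegfc* difference was 1.50 larger, at 4.11, 4.12 and 4.20 on the *ob/ob/Fsp27-/-* arrays and 2.85, 2.52 and 2.56 on the *ob/ob* arrays. The *Vegfa* minus *Vegfb* and *Efnb2* minus *Ephb4* differences were larger by 0.39 and 0.35, and the *Tek* minus *Tie1* difference was smaller by 0.66. In these 5 pairs the arrays of the genotypes did not overlap. The *Kdr* minus *Flt1* difference, larger by 0.40, overlapped (0.61, 0.16 and 0.27 on the *ob/ob/Fsp27-/-* arrays, -0.01, 0.28 and -0.41 on the *ob/ob* arrays). In a two-sided exact permutation test, p was 0.1 for the 5 pairs without overlap, the smallest that 3 arrays against 3 can give, and 0.3 for *Kdr* and *Flt1* (Benjamini-Hochberg adjusted over the 6 pairs, 0.12 and 0.3).

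**Figure D5:**
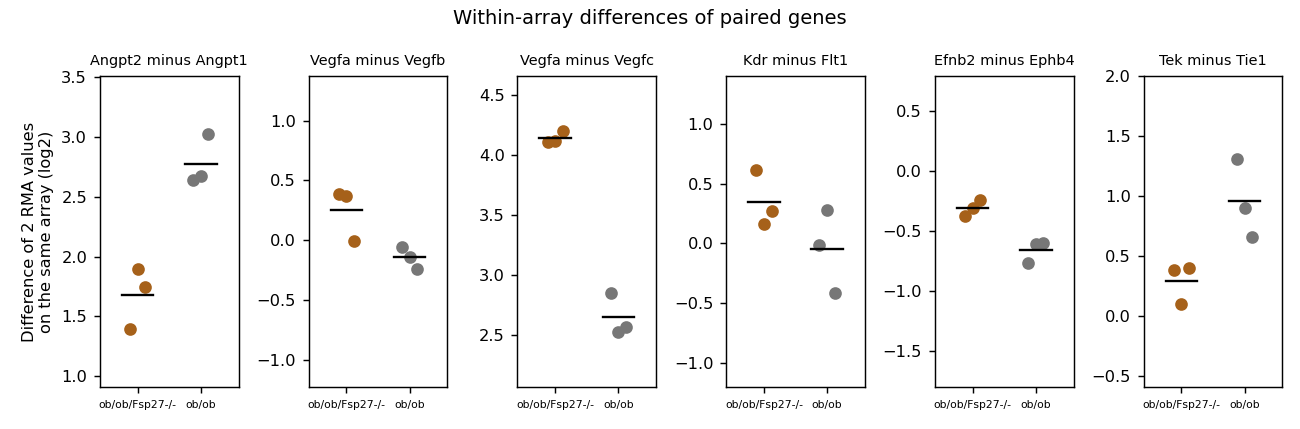
Within-array difference between paired genes (log2, y axis) on each array, with *ob/ob/Fsp27-/-* left (brown) and *ob/ob* right (grey) for each of the 6 pairs; points are arrays 1, 2 and 3 and horizontal lines are group means. The genotypes are apart for every pair but *Kdr* and *Flt1*, and the *Vegfa* and *Vegfc* pair shows the widest gap between means (1.50).

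Further genes of the same cells and pathways, 104 measured, were called 16 higher and 16 lower, where 9.58% of all genes were higher and 10.8% lower. Without *ob/ob/Fsp27-/-* array 2 the further genes were 9 higher and 15 lower, and with arrays centred on housekeeping genes 28 higher and 13 lower. Of 39 other endothelial markers, 8 were higher and 7 lower, with a median log2 difference of 0.28. The list held *Fabp4*, which is also counted among the adipocyte markers, so not every gene in it is particular to endothelium. *Car4*, the carbonic anhydrase of the capillary surface, rose by 1.15, *Cyyr1* by 1.01 and *Rgcc*, a cell cycle regulator, by 0.9996. *Tfpi*, the inhibitor of tissue factor, fell by 1.21, *Stab1*, a scavenger receptor that macrophages also carry, by 1.17, and *Procr*, the endothelial protein C receptor, by 1.07. Of 34 other VEGF and angiopoietin pathway genes, 3 were higher and 4 lower (median -0.03), close to the shares of all genes. *Plcg1*, a phospholipase downstream of VEGFR2, rose by 0.90, *Vhl*, which marks hypoxia-inducible factors for degradation, by 0.83, and *Epas1*, which encodes HIF-2α, by 0.65. The thrombospondin genes *Thbs2* and *Thbs1*, inhibitors of angiogenesis, fell by 1.52 and 1.25, and *Hgf*, the hepatocyte growth factor gene, fell by 0.93. Of 31 other Notch, ephrin, Slit and sphingosine 1-phosphate genes, 5 were higher and 5 lower (median 0.14). *Mfng*, a glycosyltransferase of Notch receptors, rose by 1.07, *Unc5b*, an endothelial netrin receptor, by 0.84, and *Hey2*, a Notch target, by 0.79. *Rbpj*, the DNA-binding partner of Notch, fell by 1.54, the sphingosine 1-phosphate receptor gene *S1pr2* by 1.39 and the Slit receptor gene *Robo1* by 0.91. Of these 18 genes, 16 were called whichever array was left out; *Rgcc* was lost without *ob/ob* array 2 or without *ob/ob/Fsp27-/-* array 2 or 3 (adjusted p up to 0.0672), and *Vhl* without *ob/ob/Fsp27-/-* array 2 (adjusted p = 0.0536).

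Markers of other cells of the tissue moved with the genotype as well. The shares of all genes, 9.58% higher and 10.8% lower, are the background for the count of each list. In *ob/ob/Fsp27-/-* GWAT 10 of the 11 macrophage markers fell (*Adgre1* -3.21, *Cd68* -2.68 and *Csf1r* -1.74 on the log2 scale), and the log2 of their summed level was 12.11 to 12.30 on the *ob/ob/Fsp27-/-* arrays and 14.28 to 14.55 on the *ob/ob* arrays. Of 11 stromal progenitor markers, 6 were lower and none higher (*Pdgfra* -0.52, with *Dpp4* at -0.30 and *Pi16* at 0.08 not called), with summed levels of 13.08 to 13.34 on the *ob/ob/Fsp27-/-* arrays and 13.92 to 13.97 on the *ob/ob* arrays. The others called lower were the matrix genes *Lum* (-1.56), *Col1a1* (-1.31), *Col3a1* (-1.66) and *Fn1* (-1.59), and *Thy1* (-1.02). The *Pdgfra* call was lost when array 2 of either genotype or *ob/ob/Fsp27-/-* array 3 was left out (adjusted p 0.053 to 0.0642) and with arrays centred on housekeeping genes (-0.34, adjusted p = 0.0543). The summed levels of both lists were below on every *ob/ob/Fsp27-/-* array, as were *Angpt2*, *Cd93*, *Nrp1*, *Fli1* and *Pdpn*. Of these genes, *Cd93*, *Nrp1*, *Fli1* and *Pdpn* are known outside endothelium too. The part of either list in the fall of any of these genes, *Angpt2* included, was not tested.

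Of 11 adipocyte markers, 6 were higher and none lower (*Adipoq* 1.20, *Plin1* 0.86 and *Lipe* 0.85), with summed levels of 15.58 to 15.64 on the *ob/ob/Fsp27-/-* arrays and 14.75 to 15.31 on the *ob/ob* arrays. The 5 not called were *Pparg* (0.33), *Fabp4* (0.32), *Lpl* (0.07), *Lep* (-0.22) and *Cidec* (-0.29). Without *ob/ob* array 2, or without *ob/ob/Fsp27-/-* array 2 or 3, 3 of the 11 were called higher, and *Plin1* and *Lipe* were among those lost (adjusted p 0.0501 to 0.0649). Of 12 pericyte and smooth muscle markers, which belong to cells around the vessel, 6 were higher and none lower, with summed levels of 12.30 to 12.50 on the *ob/ob/Fsp27-/-* arrays and 11.92 to 12.21 on the *ob/ob* arrays. Of the defining pericyte genes, *Pdgfrb* ran against the list: its log2 difference of -0.44 passed on p (adjusted p = 0.00401) and lay under the fold limit, with every *ob/ob/Fsp27-/-* array below every *ob/ob* array. *Cspg4* (0.04) and *Rgs5* (0.43) were not called. The summed levels of both lists were above on every *ob/ob/Fsp27-/-* array, as were the 19 higher genes, although about as many markers of each list were not called as were; their part in that result was not tested. *Alas2*, a gene of red cell precursors, rose by 1.63, and *Slc4a1* had a log2 difference of 0.48 that lay under the fold limit. Of 6 megakaryocyte and platelet markers, *Pf4* was lower (-1.58), and *Ppbp* (0.49) and *Itga2b* (-0.01) were not called. None of 10 mesothelial markers was called by limma or reached an unadjusted p below 0.05 (*Msln* -0.24, *Upk3b* 0.10 and *Upk1b* -0.24), with summed levels of 9.97 to 10.69 on the *ob/ob/Fsp27-/-* arrays and 9.97 to 10.73 on the *ob/ob* arrays, and the same held for 6 epididymis markers (*Lcn5* 0.23, *Lcn8* 0.06 and *Adam7* 0.48). The epididymis markers had summed levels of 6.54 to 7.18 on the *ob/ob/Fsp27-/-* arrays and 6.60 to 6.64 on the *ob/ob* arrays. On *ob/ob/Fsp27-/-* array 1 *Adam7* read 5.90, against 3.85 to 4.61 on the other arrays. The mesothelial marker *Krt8* read 8.84 on that array, against 6.15 to 7.43 on the others. The adipocyte markers were bright in both genotypes, as the tissue label gives.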

How the data were processed

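RNA from GWAT of 3 *ob/ob/Fsp27-/-* and 3 *ob/ob* samples was measured on 6 one-colour arrays. The authors deposited log2 values for 34760 probesets, which per the labels were made with RMA (background adjustment, quantile normalization and probeset summary); limma is also named in the submitters' processing notes. Array values carry no read depth, and the number of arrays limits the precision. Samples were grouped by the strain label. The platform annotation gave 1 symbol for 21640 probesets, several for 1321 and none for 11799. Of the 21640, 21553 were matched to RefSeq by gene identifier, and their current symbols were taken from there. Genotypes were compared in limma 3.58.1 (R 4.3.3) with lmFit and eBayes, *ob/ob/Fsp27-/-* minus *ob/ob*, with no covariate, and p-values were adjusted by Benjamini-Hochberg over the 22961 probesets with a symbol. A gene was represented by its one-symbol probeset with the highest mean. The procedure was tested on simulated data. Pairs were compared by exact permutation. Figures were drawn with matplotlib 3.10.9 (python 3.11.15).

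All 40 genes were named, with values per array; of the further pathway lists, the 3 called genes with the largest change in each direction were named, and of the other cell type lists the first 3. The remaining lower stromal progenitor markers, the adipocyte markers that were not called, *Fcgr1*, *Cd163* and *Krt8* were named in addition. Genes and lists were chosen with earlier results of these data known, so their counts are no independent evidence of a direction. Alternatives were filters on dim probesets, no filter by annotation, other scaling (array medians, 12 housekeeping genes, or cyclic loess), other variance models in limma (a trend, robust shrinkage, weights per array), other fold limits, limma's treat, averaging a gene's probesets, and each array left out in turn. Genes without a one-symbol probeset were not analysed here.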

Additional observations from a re-analysis of the deposited data

How the results depend on the processing

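With 3 arrays per genotype, calls near either limit depended on single arrays, and brightness was not set against a background measure. With each array left out in turn, the genes called numbered 11 to 20 higher and 4 to 6 lower, with a median log2 difference of 0.39 to 0.65; the further pathway genes 9 to 21 higher and 14 to 18 lower; and all genes 1620 to 2120 higher and 1961 to 2346 lower. The lowest of the higher counts of the first 2 sets, 11 and 9, came without *ob/ob/Fsp27-/-* array 2. With arrays centred on housekeeping genes, which shifted the median of all genes by 0.17, 3169 of all genes were higher (66.9% of calls, against 47% with the deposited scaling), 28 further pathway genes were higher and 13 lower, 3 of the 40 were lower and the median of the 40 was 0.71; *Fli1* and *Pdpn* lost their calls, and *Pecam1*, *S1pr1*, *Esam*, *Cldn5*, *Mmrn2*, *Sox17* and *Prox1* gained one. The 12 housekeeping genes differed between genotypes themselves. With the deposited scaling their median log2 difference was -0.18, with 10 negative, 2 called lower and none called higher. With no fold limit, 2936 of all genes and 25 further pathway genes were higher. With a log2 fold limit of 1, 4 of the 40 were higher and 2 lower, as were 3 and 7 of the further genes and 652 and 955 of all genes. With treat these counts were 3 and 2, 1 and 5, and 566 and 939. *Ptprb* also lost its call with median centring, cyclic loess or all probesets, the last also losing *Sox18* and *Pdpn*; *Mmrn2* gained one with median centring or array weights, and *Esam* with a filter at the median. *Cd93*, *Nos3*, *Kdr*, *Vegfa* and *Angpt2* were called in all 19 alternatives. The cause of these moves was not tested. No paired analysis was possible because the sample labels share no number between genotypes.

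The differences that changed sign were all of genes or lists that had not passed. With housekeeping centring *Vegfc* was at 0.043, *Itga2b* at 0.17 and the angiopoietin and Tie median at 0.15. That median was 0.29 with the median filter, *Itga2b* was at 0.007 with median centring, and with array weights *Cspg4* was at -0.0069 and *Upk3b* at -0.12. With each array left out, *Vegfc* ranged over -0.34 to 0.044, *Aplnr* -0.10 to 0.33, *Pgf* -0.38 to 0.27, *Cspg4* -0.14 to 0.17, *Pi16* -0.0020 to 0.16, *Upk3b* -0.25 to 0.30, *Itga2b* -0.034 to 0.048, *Lcn8* -0.045 to 0.19, *Adam7* -0.15 to 0.80 and the angiopoietin and Tie median -0.085 to 0.036.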
